A study of Mus musculus with 5 samples.

Results

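The interleukin 1 family and its receptors were followed here as 10 genes among the 28693 features of a lung scRNA-seq series, chosen by symbol: the ligands *Il1a*, *Il1b*, *Il18* and *Il33*, the inhibitors *Il1rn* and *Il18bp*, and the receptors *Il1r1*, *Il1rap*, *Il1r2* and *Il1rl1*. All 10 were found, and all 10 passed the filter on low counts, which also keeps a gene that is high in a single class. Lungs of *Ms4a3-CreER;R26-tdT* mice, in which tamoxifen-inducible Cre under *Ms4a3* marks the monocyte lineage with a red reporter, were profiled in 5 libraries. These were 1 library of PBS-treated (sham) lungs and 1 each of lungs at day 3, day 7, day 14 and day 28 after intratracheal bleomycin, a drug that causes acute injury and then fibrosis. The mice were adults of both sexes on a C57BL6/129 mixed background, and the number of animals in a library is not given in the sources used here. With 1 library per time point, time points were not tested against each other, and intervals cover counting error only.

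The libraries held 89769386 to 167506186 UMIs, and 44772 of 52800 barcodes were kept. Cells were assigned to 23 classes by marker genes that include none of the 10 genes, and 4604 cells stayed unassigned. Pairs of libraries shared 22 to 41 barcodes. The day 7 library stands apart, with exactly 10000 barcodes of at least 4624 UMIs each, where the smallest barcodes of the others had 500 to 502 UMIs. Its 241 neutrophils also carried less of the summed neutrophil markers, 44882 CPM against 73165 to 129408 CPM in the other libraries, and 19622 CPM of the club cell gene *Scgb1a1*, against 224 to 3500 CPM. The samples are labelled as immune cells, yet 579 epithelial cells, 299 endothelial cells and 285 fibroblasts passed the gates. Each level (CPM) adds up the UMIs that a gene had in all cells of a class in a library, per 1000000 UMIs of the same cells. UMIs from the 3′ end count molecules, so that CPM needs no correction for gene length.

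IL-1α and IL-1β are inflammatory cytokines that bind the receptor encoded by *Il1r1*, which signals together with the accessory chain encoded by *Il1rap*. The antagonist encoded by *Il1rn* occupies the same receptor without signalling, and the receptor encoded by *Il1r2* is a decoy. IL-18 is neutralized by the binding protein encoded by *Il18bp*, and IL-33, an alarmin of barrier tissues, acts through ST2, encoded by *Il1rl1*, on group 2 innate lymphoid cells (ILC2s), regulatory T cells and mast cells.

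The 10 genes differed in the cell class where they were highest. *Il1b*, *Il1r2* and *Il1rap* had their highest median in neutrophils, *Il18* in alveolar macrophages (AMs), *Il33* in fibroblasts and *Il1rl1* in ILC2s. *Il1a* and *Il1rn* were spread over macrophages, neutrophils and monocytes. Of the neighbours at the top of each order, neutrophils and type 2 dendritic cells (DC2s) did not overlap for *Il1b*, nor did fibroblasts and epithelial cells for *Il33* or ILC2s and regulatory T cells for *Il1rl1*. The ranges overlapped for *Il1a* in AMs and interstitial macrophages (IMs), for *Il1rn* in neutrophils and IMs, for *Il18bp* in mature dendritic cells and IMs, for *Il1r1* in γδ T cells and fibroblasts, for *Il1rap* in neutrophils and AMs and for *Il1r2* in neutrophils and DC2s.

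**Figure D1:**
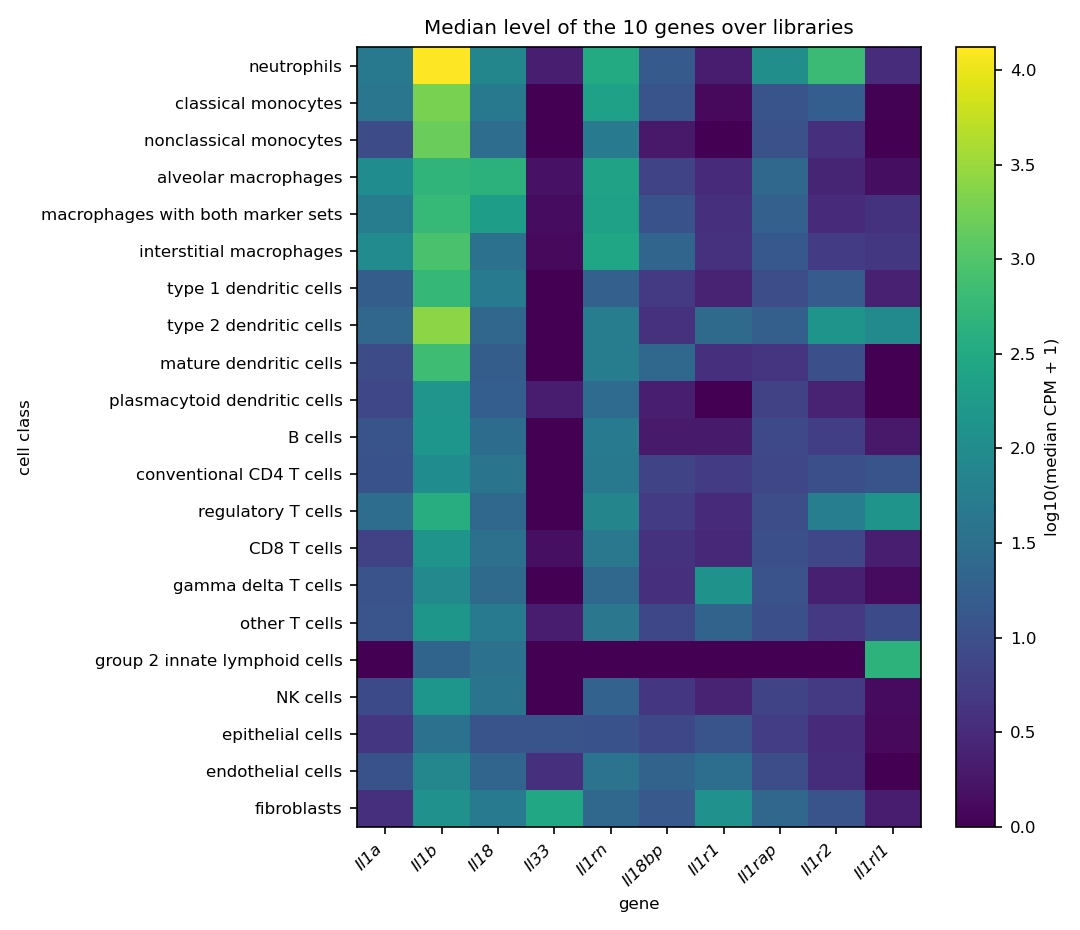
Median level of the 10 genes (columns) in each cell class (rows) over the libraries with at least 20 cells of the class, or 5 for ILC2s, as log10(CPM + 1). *Il1b* in neutrophils, with a median of 13261 CPM, is the brightest cell, and *Il33* in fibroblasts, at 289 CPM, stands above epithelial cells at 10.8 CPM.

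The promoters of genes whose levels set these classes apart are shown with motifs chosen from those that a search of both strands found. They are taken from RefSeq (GRCm38.p6), run 5′ to 3′ in the direction of the gene, and cover 250 bases before to 50 after a start site. In *Il1b*, chr2:129371090-129371389 on the minus strand, the capitals mark a C/EBP-like TTNNGNAA match. In *Il1rl1*, at chr1:40429320-40429619 and chr1:40439379-40439678 on the plus strand, they mark the GATA match AGATAA, read on the other strand as TTATCT in the second window. TTNNGNAA also matched in both of these windows and in that of *Il18bp*, where it is left in lower case. *Il18bp*, chr7:102018183-102018482 on the minus strand, is shown because of its peak at day 3. This window held no match of the interferon-stimulated response element (ISRE), that is GAAA, NN and GAAA in a row. It lies inside the annotated gene, which on this strand begins at 102018690, and the bases before that point were not searched.
Il1b: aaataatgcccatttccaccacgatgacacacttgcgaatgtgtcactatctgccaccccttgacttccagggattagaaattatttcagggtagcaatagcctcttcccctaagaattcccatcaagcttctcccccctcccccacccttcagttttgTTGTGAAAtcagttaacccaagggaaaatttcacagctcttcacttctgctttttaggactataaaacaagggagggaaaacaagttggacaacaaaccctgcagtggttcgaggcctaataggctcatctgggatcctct
Il1rl1 (first start site): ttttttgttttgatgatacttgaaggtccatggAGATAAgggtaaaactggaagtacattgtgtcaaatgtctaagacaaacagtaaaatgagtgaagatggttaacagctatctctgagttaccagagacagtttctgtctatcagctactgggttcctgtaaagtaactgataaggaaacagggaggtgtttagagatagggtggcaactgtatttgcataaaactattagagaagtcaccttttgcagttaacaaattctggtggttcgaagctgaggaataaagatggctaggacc
Il1rl1 (second start site): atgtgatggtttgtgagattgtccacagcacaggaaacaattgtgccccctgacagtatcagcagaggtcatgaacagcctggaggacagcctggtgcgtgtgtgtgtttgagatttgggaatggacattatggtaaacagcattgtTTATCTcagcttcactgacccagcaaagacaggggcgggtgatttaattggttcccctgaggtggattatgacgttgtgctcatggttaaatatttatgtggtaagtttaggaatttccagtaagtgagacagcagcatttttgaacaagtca
Il18bp: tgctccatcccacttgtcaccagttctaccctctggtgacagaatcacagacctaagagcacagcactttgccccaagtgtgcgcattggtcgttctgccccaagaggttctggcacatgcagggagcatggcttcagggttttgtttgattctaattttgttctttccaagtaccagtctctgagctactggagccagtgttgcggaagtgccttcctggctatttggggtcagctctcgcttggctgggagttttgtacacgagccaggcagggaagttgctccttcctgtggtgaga
TTNNGNAA stood in 40.7% of all 32841 promoters of this length, AGATAA in 11.2% and the ISRE motif in 3.44%. The search also covered TTCNNNGAA (8.3% of promoters), TGANTCA (7.81%) and the NF-κB motif (8.46%). A match describes letters only, and binding was not measured.

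*Il1b*, at 2:129364570-129371139 on the minus strand of GRCm38, was the most abundant of the 10 genes. In neutrophils it was 20131 CPM in sham, 17002 on day 3, 3531 on day 7, 13261 on day 14 and 8467 on day 28. DC2s followed with 1750, 2679, 2577, 3129 and 1512 CPM in the same order. Every neutrophil value lay above every DC2 value, and the lowest neutrophil value was that of day 7. With the day 7 minimum of 4624 UMIs applied to every library, the lowest neutrophil value was that of day 28, and it lay below the DC2 value of day 7. Classical monocytes had 2286 CPM in sham, 1520 on day 3, 3041 on day 7 and 1699 on day 14, a range within that of DC2s. Natural killer (NK) cells, which are not a known source, had 37.6, 146, 595, 192 and 17.1 CPM, and these levels are given as a measure of background. With each cell thinned to 1500 UMIs, *Il1b* was found in 88.0% to 98.7% of neutrophils and in 1.64% to 20.8% of NK cells. Unthinned, the shares were 95.4% to 99.5% at median depths of 2198 to 10415 UMIs, and 7.25% to 45.8% at 3403 to 8468 UMIs. Neutrophils held 63.0% of all *Il1b* UMIs of kept cells in sham, 40.3% on day 3, 7.94% on day 7, 36.2% on day 14 and 42.5% on day 28. On day 7 IMs held 22.6%, DC2s 18.4% and AMs 11.8%. These shares also depend on the cells kept. Neutrophils numbered 1164 in sham, 810 on day 3, 241 on day 7, 851 on day 14 and 519 on day 28. Day 7 held only barcodes of at least 4624 UMIs, and shares with that minimum in every library are not given here.

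Macrophages carried less *Il1b*, and its level changed over time in AMs. It was 258 CPM in sham, 1139 on day 3, 489 on day 7, 559 on day 14 and 107 on day 28. The day 3 level was 4.41 times that of sham (4.32 to 4.51), and the day 28 level 0.414 times (0.404 to 0.425). IMs had 1254, 1276, 852, 641 and 144 CPM, the last being 0.115 times the sham level (0.108 to 0.122). Both macrophage classes had their lowest level at day 28, as had NK cells. On day 7 the AM level lay below that of NK cells, given above as background, and in the other libraries above it. The IM level lay above that of NK cells in every library.

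*Il1a*, at 2:129299610-129309972 on the minus strand, encodes the ligand that cells also hold in the nucleus and on the membrane. AMs had 131 CPM in sham, 180 on day 3, 99 on day 7, 68.2 on day 14 and 31.9 on day 28. IMs had 185, 62.9, 99.6, 95.5 and 32.1 CPM. At day 3 the level in IMs was 0.339 times that of sham (0.286 to 0.405), while in classical monocytes it was 6.76 times (4.02 to 12.4), from 10.4 to 70.4 CPM. The sham level of monocytes rests on 14 UMIs.

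*Il18*, at 9:50554827-50581840 on the plus strand, encodes a cytokine that is stored as a precursor in macrophages and epithelia. In AMs it was 569 CPM in sham, 468 on day 3, 329 on day 7, 366 on day 14 and 450 on day 28. IMs stayed between 24.6 and 59.3 CPM, and macrophages with both marker sets between 200 and 211 CPM where at least 20 cells were present. These 3 ranges did not overlap. NK cells, taken as background above, had 55.7 CPM in sham, 7.54 on day 3, 96.4 on day 7, 36.9 on day 14 and 34.2 on day 28. IMs lay below NK cells in sham and on day 7, and above them on the other days. AMs held 96.0% of the *Il18* UMIs of the sham library and 60.4% at day 3. Epithelial cells had 4.84 to 13 CPM in the libraries with at least 20 of these cells. In these libraries they carried 155306 to 474876 CPM of the club cell gene *Scgb1a1*. They also carried 880 to 5569 CPM of *Sftpc* and 0 to 217 CPM of *Foxj1*. The shares of epithelial cell types were not measured.

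*Il33*, at 19:29925114-29960718 on the plus strand, was a fibroblast gene in these libraries. Fibroblasts had 289 CPM in sham, 811 on day 3, 345 on day 7, 119 on day 14 and 227 on day 28. Their day 14 value rests on 47 UMIs and lies below the others. Epithelial cells ranged from 0 to 27.7 CPM. AMs reached 1.04 CPM at most, on 11 UMIs. Fibroblasts held 59.6% of all *Il33* UMIs of kept cells in sham, 89.5% on day 3, 56.4% on day 7 and 54.3% on day 28. On day 14 the unassigned cells held most, with 36.4%, next to 35.4% in epithelial cells.

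**Figure D2:**
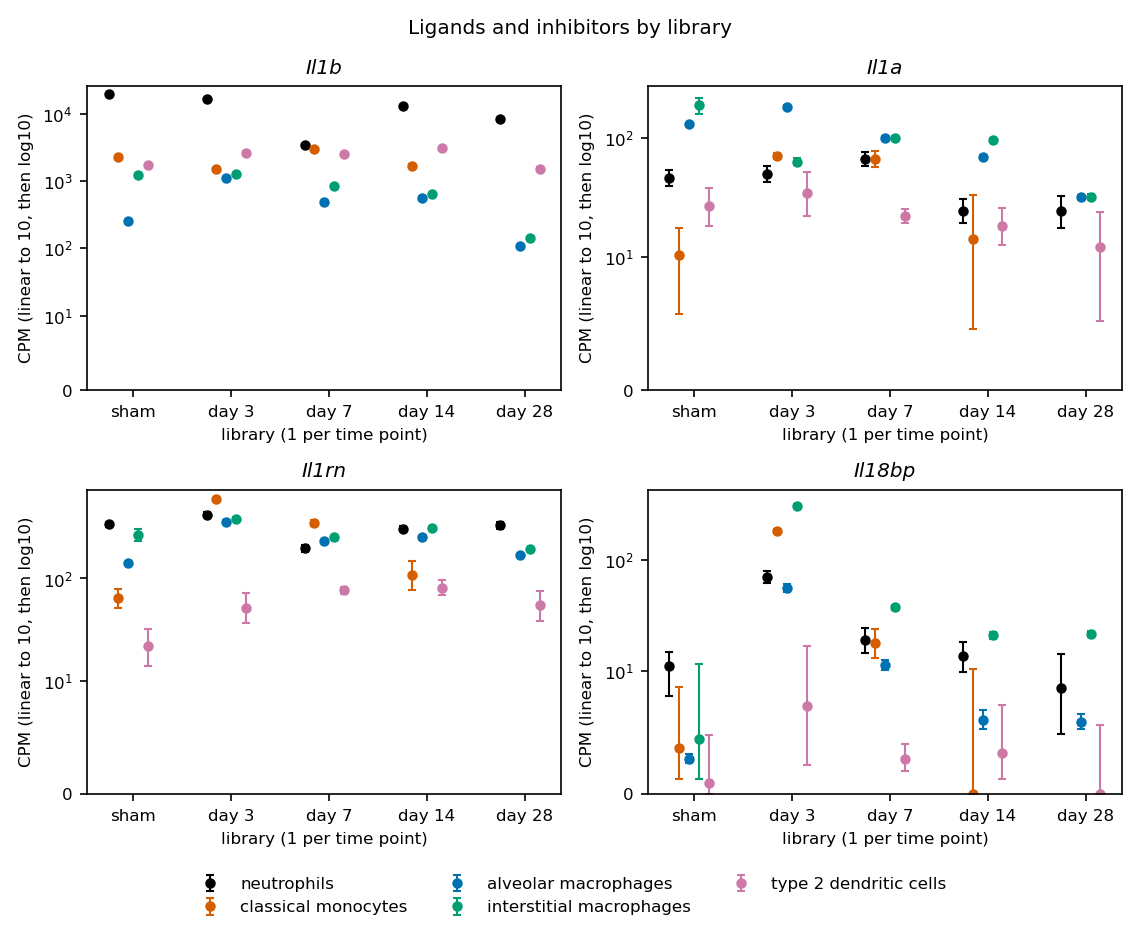
Levels (CPM, linear up to 10 and log10 above) of *Il1b*, *Il1a*, *Il1rn* and *Il18bp* by library in 5 myeloid classes, with exact 95% Poisson intervals; points are missing where a class held fewer than 20 cells. Neutrophils are the highest class for *Il1b* in every library, and *Il18bp* peaks at day 3 in 5 of 5 classes. In DC2s that peak rests on 5 UMIs, and its interval of 2.33 to 16.8 CPM overlaps those of the other libraries.

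The inhibitor *Il1rn*, at 2:24336853-24351494 on the plus strand, was found in neutrophils, macrophages and classical monocytes, which also carried *Il1b*. DC2s, the second class for *Il1b*, held few *Il1rn* UMIs beside those of *Il1b*. From sham to day 28 these were 25, 36, 756, 147 and 36, against 2018, 1865, 25472, 5643 and 1001 of *Il1b*. Neutrophils had 338 CPM in sham, 422 on day 3, 197 on day 7, 308 on day 14 and 332 on day 28. IMs had 267, 386, 257, 311 and 195 CPM, and AMs 141, 360, 232, 255 and 170 CPM. Classical monocytes went from 63.9 CPM in the sham library to 599 on day 3, 351 on day 7 and 108 on day 14. The day 3 level was 9.37 times that of sham (7.58 to 11.7) in monocytes and 2.55 times (2.46 to 2.64) in AMs. NK cells had 13.7 to 134 CPM, the highest being that of day 7.

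For each *Il1b* UMI, *Il1rn* UMIs were few in neutrophils, with 0.0168 in sham, 0.0248 on day 3, 0.0557 on day 7, 0.0232 on day 14 and 0.0392 on day 28. In AMs the ratio was 0.548, 0.316, 0.475, 0.456 and 1.59. IMs had 0.213, 0.302, 0.302, 0.485 and 1.36. The ratio thus passed 1 on day 28 in both macrophage classes (1.55 to 1.64 in AMs and 1.31 to 1.40 in IMs), when their *Il1b* was lowest. On day 28 *Il1rn* UMIs also outnumbered *Il1b* UMIs in CD8 T cells (193 against 109) and regulatory T cells (16 against 2). The same held for T cells of no named subset (191 against 130). It did not hold for B cells (75 against 98), conventional CD4 T cells (67 against 92) or γδ T cells (38 against 47).

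*Il18bp*, at 7:102014885-102018690 on the minus strand, was low except at day 3. IMs had 4.49 CPM in sham, 309 on day 3, 37.4 on day 7, 20.9 on day 14 and 21.5 on day 28. Classical monocytes had 3.71, 185, 17.9 and 0 CPM up to day 14, and AMs 2.86, 55.8, 11.3, 6.03 and 5.88 CPM. The ratio of day 3 to sham was 19.5 (16.9 to 22.5) in AMs, 49.7 (21.3 to 153) in monocytes and 68.8 (26.8 to 252) in IMs, where the sham levels rest on 5 and 4 UMIs. Between sham and day 3 B cells moved from 0.551 to 21.2 CPM and conventional CD4 T cells from 1.51 to 39.5 CPM, each sham level on 1 UMI. *Irf7*, an interferon-response gene that is no member and was chosen after its values were seen, went from 2.49 to 446 CPM in AMs and from 29.2 to 1035 CPM in IMs between sham and day 3; its part in the *Il18bp* values was not tested.

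Among the receptors, the decoy *Il1r2*, at 1:40074079-40125231 on the plus strand, was highest in neutrophils. They had 524 CPM in sham, 844 on day 3, 160 on day 7, 670 on day 14 and 657 on day 28. DC2s had 55.5, 134, 174, 272 and 112 CPM, and regulatory T cells 37.3, 79.4, 56.8, 60 and 26.9 CPM. At day 7 the DC2 level was above that of neutrophils, and in the other 4 libraries it was below. NK cells had at most 8.38 CPM. Thinned to 1500 UMIs, 54.96% of sham neutrophils carried *Il1r2*, 68.1% on day 3, 27.8% on day 7, 66.7% on day 14 and 63.1% on day 28. The day 7 share was the lowest, as was the level, but with the minimum of 4624 UMIs in every library the lowest level was that of day 28.

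*Il1r1*, the signalling receptor, at 1:40225080-40317257 on the plus strand, was highest in γδ T cells and fibroblasts. Fibroblasts had 82.2 CPM in sham, 178 on day 3, 88.9 on day 7, 210 on day 14 and 120 on day 28. In γδ T cells, which also carried 448 to 877 CPM of *Il17a*, *Il1r1* was 60.3 CPM at day 3, 102 on day 7, 216 on day 14 and 153 on day 28; the sham library held only 19 of these cells. DC2s had 25.2, 0, 14.2, 33.3 and 45.3 CPM, where 0 UMIs in 38 cells at day 3 allows a level of up to 4.31 CPM, that of 3 UMIs. AMs had at most 3.76 CPM and classical monocytes at most 2.85 CPM, on 1 UMI.

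*Il1rap*, the shared accessory chain, at 16:26581704-26730117 on the plus strand, was 80.1, 108, 29, 181 and 112 CPM in neutrophils from sham to day 28. AMs had 20.2 to 29.6 CPM and IMs 5.77 to 18 CPM. The lowest neutrophil value, at day 7, lay within the AM range. Its log2 ratio to sham was -1.47, and 0.14 with the minimum of 4624 UMIs in every library.

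*Il1rl1*, the IL-33 receptor, at 1:40429570-40465415 on the plus strand, marked ILC2s. These had 439 CPM in sham, 461 on day 3, 398 on day 7, 1129 on day 14 and 643 on day 28, on 7 to 17 cells a library and 57 cells in all. Regulatory T cells had 103, 75.9, 135, 313 and 193 CPM, and in both classes day 14 was highest. DC2s had 101, 8.62, 39.4, 89.3 and 98.2 CPM. Basophils and mast cells, with 2 to 16 cells a library, ranged from 0 to 1407 CPM.

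**Figure D3:**
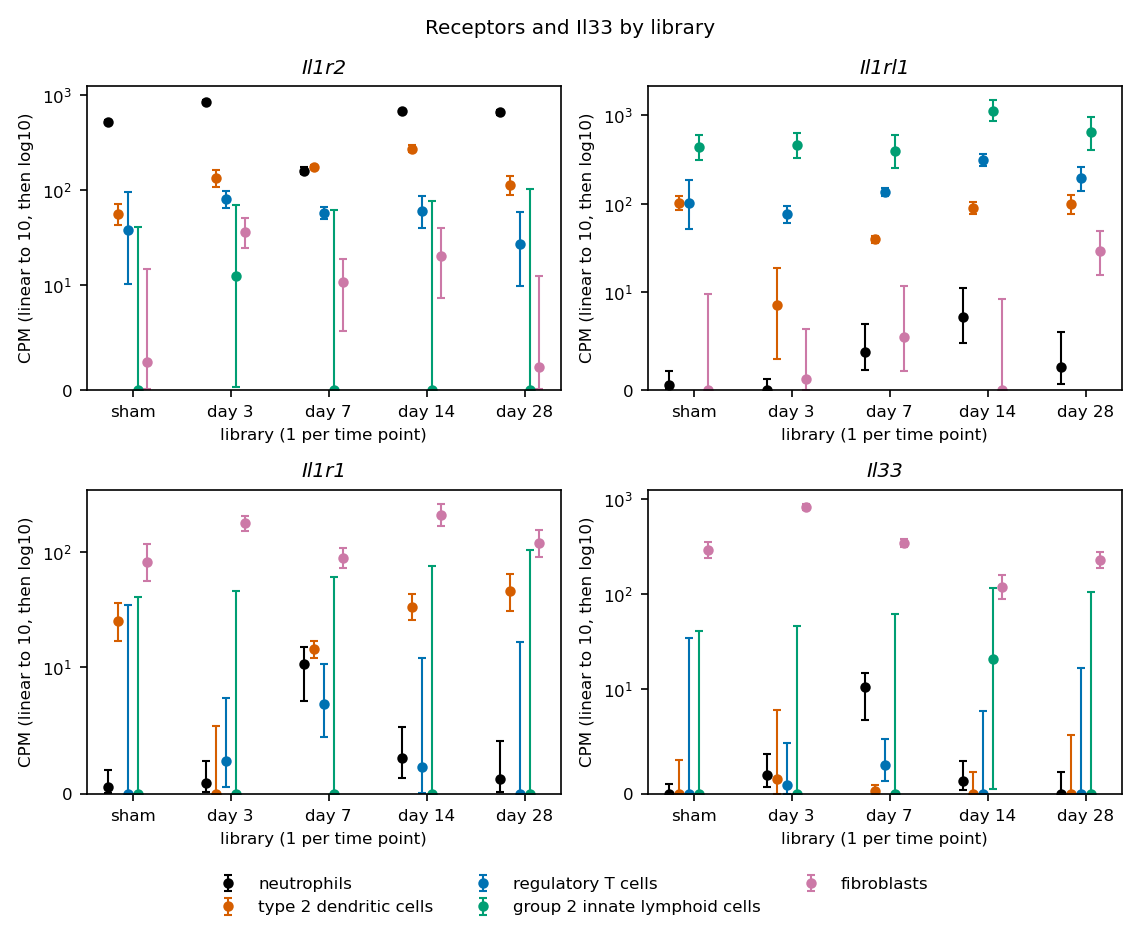
Levels (CPM, linear up to 10 and log10 above) of *Il1r2*, *Il1rl1*, *Il1r1* and *Il33* by library in neutrophils, DC2s, regulatory T cells, ILC2s and fibroblasts, with exact 95% Poisson intervals. *Il1rl1* of ILC2s sits between 398 and 1129 CPM, above the other 4 classes in each library, and *Il33* of fibroblasts between 119 and 811 CPM.

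The classes were then compared over libraries on summed UMIs with edgeR's quasi-likelihood test, with the library as a block; adjusted p-values are Benjamini–Hochberg values and cover every gene in the fit. Differences are log2 values, first class minus second. Because the 5 libraries are also the 5 time points, the spread behind these tests mixes time with library.

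Neutrophils differed from AMs in 9 of the 10 genes, 7 higher and 2 lower, against 62.1% of all genes. *Il1r2* was higher by 8.68 (SE 0.55, adjusted p = 1.15e-22), *Il1b* by 5.51 (SE 0.64, 2.54e-11) and *Il1rap* by 2.42 (SE 0.28, 1.39e-11). *Il18* was lower, at -2.27 (SE 0.38, adjusted p = 6.04e-07). *Il18bp* (1.33), *Il1rn* (1.07), *Il1rl1* (2.60) and *Il33* (2.02) were higher and *Il1a* (-0.88) lower; *Il1r1* did not pass. *Il33* and *Il1rl1* are low in both classes, with at most 10.3 and 7.43 CPM in neutrophils. Without day 7 the call of *Il33* was lost (adjusted p = 0.413), as was that of *Il1rl1* without day 14 (0.0889). Without sham the adjusted p of *Il1rn* was 0.205, and without day 28 it was 0.0592. *Il1a* was lost without sham (0.0835), day 3 (0.0627), day 7 (0.075) or day 14 (0.0766).

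Classical monocytes, compared in 4 libraries because day 28 held 5 of these cells, differed from AMs in 7 of 10 genes, against 35% of all genes. *Il1r2* was higher by 2.69 (SE 0.51, adjusted p = 1.58e-05) and *Il18* lower, at -2.73 (SE 0.43, 2.66e-07). *Il1b* (1.88, adjusted p = 0.00648) and *Il18bp* (1.23) were higher, and *Il1a* (-1.27), *Il1r1* (-2.28) and *Il1rap* (-1.003) lower. Without the sham library, *Il1b* had an adjusted p of 0.0584, *Il1a* of 0.187 and *Il1rap* of 0.0795. *Il1rap* was also lost without day 3 (0.08) or day 14 (0.0626), and *Il18bp* without day 3 (0.625). The call of *Il1r1*, on 5 monocyte UMIs in the libraries compared, was lost without any 1 of the 5 libraries, at 0.0569 to 0.168.

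IMs differed from AMs in 4 of 10 genes, against 29.3% of all genes. *Il18* was lower, at -3.29 (SE 0.39, adjusted p = 1.3e-10), and so was *Il1rap*, at -1.04 (SE 0.28, 0.00241). *Il18bp* was higher by 2.06 (SE 0.32, 1.79e-07) and *Il1rl1* by 2.52 (SE 0.52, 5.66e-05), the latter between levels of 0.699 to 8.98 CPM in IMs and 0.19 to 1.05 CPM in AMs. *Il1b*, *Il1a* and *Il1rn* did not pass, with adjusted p of 0.303, 0.981 and 0.517. *Il1rap* was lost without day 3 (0.0532).

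Mature dendritic cells, which have left the resting state and migrate to lymph nodes, differed from DC2s in 6 of 10 genes, against 38% of all genes. *Il1rl1* was lower, at -7.47 (SE 0.78, adjusted p = 8.31e-13), with 0 to 0.857 CPM in mature cells. *Il1r2* (-3.83, SE 0.505), *Il1r1* (-3.13, SE 0.54), *Il1rap* (-2.55, SE 0.40) and *Il1b* (-1.89, SE 0.55) were lower as well. *Il18bp* alone was higher, by 3.54 (SE 0.50, 8.77e-09). *Il1b* was lost without day 28 (0.0514).

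In the comparisons of regulatory T cells and ILC2s with conventional CD4 T cells, the largest called difference was in *Il1rl1*. Other lymphoid classes were not compared. Regulatory T cells exceeded conventional CD4 T cells in 2 of 10 genes, against 3.7% of all genes, with *Il1rl1* higher by 3.19 (SE 0.50, adjusted p = 7.21e-06) and *Il1r2* by 2.06 (SE 0.58, 0.026). *Il1r2* was lost without sham (0.0604), day 3 (0.189), day 14 (0.231) or day 28 (0.0568). ILC2s exceeded conventional CD4 T cells in *Il1rl1* alone, by 4.95 (SE 0.55, 4.21e-11), against 4.36% of all genes. As no library held 20 ILC2s, a minimum of 5 cells was used, chosen after the cell numbers were known.

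Epithelial cells, compared in 4 libraries since day 3 held 16 of them, differed from endothelial cells and fibroblasts in 4 of 10 genes, against 39.1% of all genes. All 4 were lower: *Il1r1* at -2.53 (SE 0.48, adjusted p = 1.19e-05), *Il1rap* at -1.98 (SE 0.45, 0.000176), *Il18* at -1.76 (SE 0.50, 0.00309) and *Il1rn* at -1.46 (SE 0.59, 0.0413). *Il33* did not pass (0.969); of the classes on the other side, fibroblasts had 119 to 811 CPM and endothelial cells 0 to 17.9 CPM. The leukocyte gene *Ptprc* was 60.4 to 213 CPM in endothelial cells and 11.4 to 29.1 CPM in epithelial cells; its part in *Il18* and *Il1rn* was not tested. *Il18* was lost without day 28 (0.0672), and *Il1rn* without day 7 (0.209), day 14 (0.107) or day 28 (0.175).

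**Figure D4:**
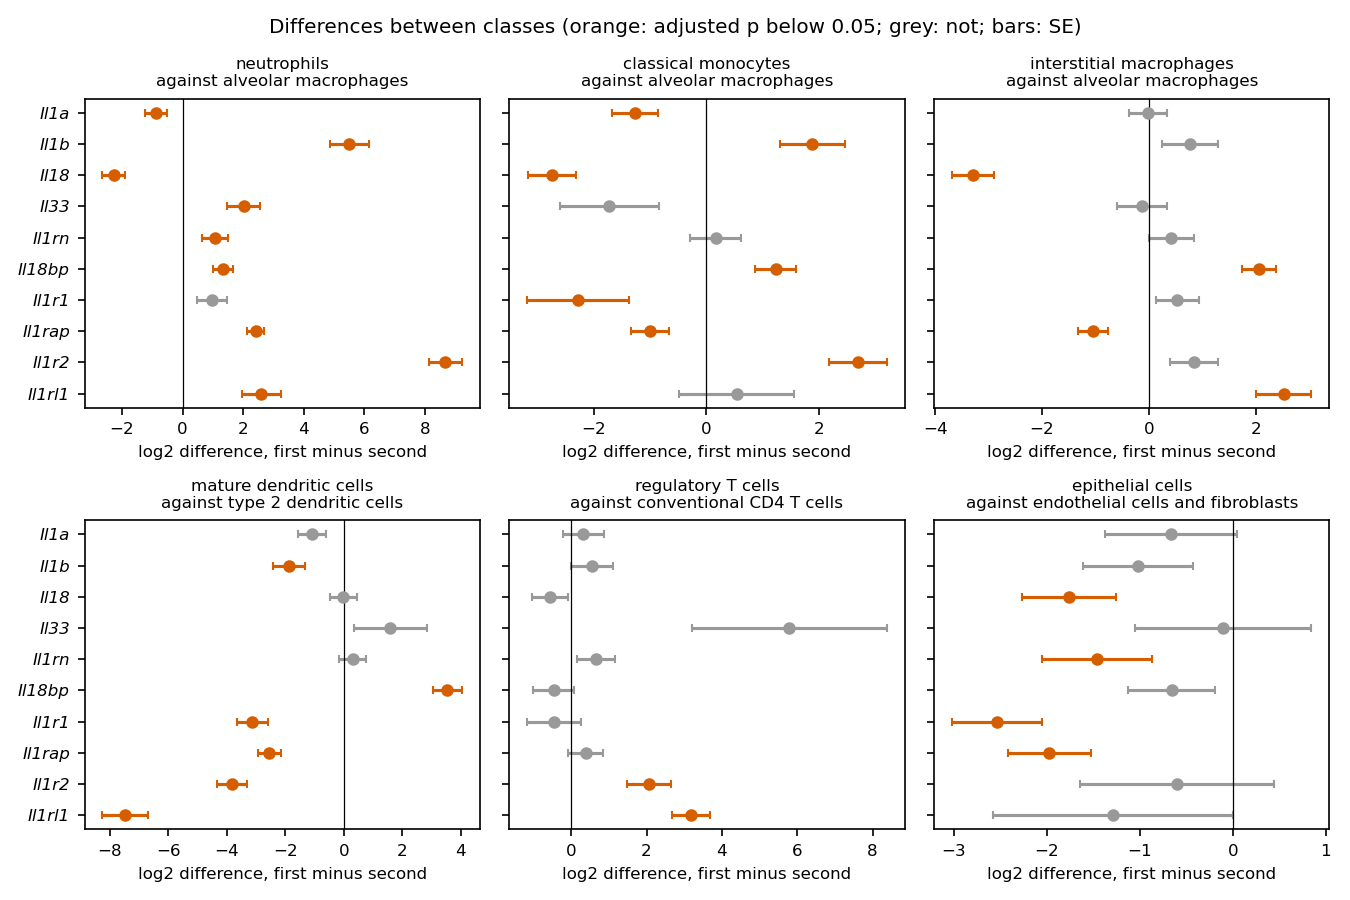
Log2 differences between classes for the 10 genes (points) with SE (bars) in 6 comparisons; orange points have an adjusted p below 0.05. *Il1r2* and *Il1b* stand farthest to the right for neutrophils, at 8.68 and 5.51, and *Il1rl1* farthest to the left for mature dendritic cells, at -7.47.

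Levels of each day were set beside sham, and a difference of at least 2-fold was counted where a pair held at least 10 UMIs; these are counts over single libraries with no test. In neutrophils 2 of 7 measured members were past this fold at day 3, against 17.6% of all genes, 6 of 10 on day 7 (47.8%), 4 of 9 on day 14 (17.7%) and 1 of 7 on day 28 (23.4%). Classical monocytes had 3 of 7 on day 3, all higher (25%), 4 of 7 on day 7, all higher (21.9%), and 1 of 6 on day 14 (20.2%). AMs had 5 of 10 on day 3 (18.3%), 4 on day 7 (20.7%), 4 on day 14 (19.6%) and 5 on day 28 (21%). IMs had 5 of 8 on day 3 (23.3%), 1 of 10 on day 7 (15%), 3 on day 14 (20.1%) and 6 on day 28 (23.8%), of which 4 were lower.

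Of the 6 members of day 7 neutrophils, *Il33*, *Il1r1* and *Il1rl1* were higher and *Il1b*, *Il1r2* and *Il1rap* lower, in the cells with reduced neutrophil markers described above. *Il33* was at least 13-fold higher there, with the sham level set to that of 3 UMIs, and *Il1rl1* rests on 2 sham UMIs and 12 on day 7. Day 7 held only barcodes of at least 4624 UMIs. With that minimum in every library, which left 591 of 3585 neutrophils, the log2 ratio of day 7 to sham was -1.02 for *Il1b* and -0.49 for *Il1r2*, against -2.51 and -1.71 without it, and *Il1rap* turned from -1.47 to 0.14. The *Il1b* log2 ratio of day 28 went from -1.25 to -2.14 and that of day 3 from -0.24 to 0.44 with the same minimum.

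Of 44 other genes of the pathway, 39 could be tested. Between neutrophils and AMs, where 62.1% of all genes were called, 20 were higher and 6 lower, with *Il1f9*, which encodes IL-36γ, at 9.13 (SE 0.47) and the inflammasome sensor *Mefv* at 7.52 (SE 0.59), both higher, at the top. *Nlrc4* (-1.85) and *Il1rl2*, the receptor for IL-36 (-1.27), were the lowest. In classical monocytes against AMs 13 were higher and 4 lower, and in IMs against AMs 9 and 7, where 35% and 29.3% of all genes were called, with *Mefv* (6.94 and 4.08) and the prostaglandin synthase *Ptgs2* (3.22 and 2.82) leading both. Between mature dendritic cells and DC2s, where 38% of all genes were called, 9 were higher and 13 lower, among them *Traf6* (1.81) and *Rela* (0.82) against *Mefv* (-3.41) and *Nlrp1b* (-3.20). Regulatory T cells, where 3.7% of all genes were called, had 2 higher, *Il6* (3.39) and the inhibitor of NF-κB *Nfkbia* (1.08). ILC2s, where 4.36% of all genes were called, had *Nfkb1* (2.02) and *Nfkbia* (1.55) higher and *Il18r1* (-3.84) and *Pycard* (-1.49) lower. Epithelial cells, where 39.1% of all genes were called, had 6 higher, led by *Il18r1* (2.91) and *Tab1* (2.27), and 16 lower, led by *Cxcl1* (-3.30) and *Irak3* (-2.92). The median log2 difference of the 39 was 0.46 for neutrophils, 0.38 for monocytes, -0.021 for IMs and -0.13 for mature dendritic cells, against -0.034, -0.073, -0.025 and 0.069 over all genes tested. It was 0.14 for regulatory T cells, -0.13 for ILC2s and -0.62 for epithelial cells, against -0.0048, -0.48 and 0.050 over all genes.

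The genes most like each member were sought over 94 class and library sums, which share libraries and depth, by Pearson r of log2(CPM + 10). *Il33* followed *Osr1* (0.964), *Ccl11* (0.956) and *Sfrp4* (0.955). *Il18* was closest to *Trim29* (0.872), *Il1rn* to *Osm* (0.868), *Il1b* to *Mcl1* (0.854) and *Il1r2* to *Il1bos* (0.844), a transcript annotated opposite to the *Il1b* locus, whose reads cannot be told apart from those of *Il1b* where the counting does not use strand. *Il1r1* was closest to *Abi3bp* (0.829), *Il1rap* to *Sycp2* (0.769), *Il1a* to *Tlr2* (0.764), *Il18bp* to *Ube2l6* (0.758) and *Il1rl1* to *Ncmap* (0.707).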

How the data were processed

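Per the labels, immune-enriched lung cell suspensions were profiled with 10x Genomics 3′ chemistry, and per the submitters' processing notes reads were processed with Cell Ranger 6.0.0 on mm10. The authors deposited raw UMI counts per gene and barcode for each of the 5 libraries, and these counts are the only values used. A barcode was kept if it had between 300 and 8000 genes, between 800 and 60000 UMIs, and less than 15% of its UMIs from mitochondrial genes; 3243 barcodes with the highest Scrublet scores were left in, and were left out as an alternative. Apart from ILC2s, a cell was assigned to a class if at least 3 markers and a share of 0.4 of the class's list were detected, with a margin of 0.1 to the next class. AMs and IMs needed no margin to each other and were split by a difference of 0.1 in share. T cells were split by single genes, such as *Foxp3* for regulatory T cells and *Trdc* without *Trac* for γδ T cells. ILC2s needed at least 3 markers, *Gata3*, none of *Trac*, *Cd3e* and *Cd3g*, and the margin to classes other than T cells. UMIs were summed per class and library, for at least 20 cells. The 10 members, the marker and pathway lists and the comparisons were chosen with earlier results of these data known.

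Levels carry exact 95% Poisson intervals and ratios exact binomial intervals. A level of 0 was replaced by that of 3 UMIs per library in a ratio, which is then a bound. Class sums were tested with edgeR 4.0.16 (R 4.3.3; filterByExpr, TMM, quasi-likelihood, library as a block, all classes in the fit), with Benjamini–Hochberg adjustment over all genes tested and a threshold of 0.05; the fit was tested on simulated data first. All members were named, and of the 44 pathway genes up to 2 called genes in each direction of a comparison. DESeq2 1.42.0, other filters, class definitions and left-out libraries were alternatives. Clustering used scanpy 1.11.5. Whether the counting used strand is not given in the sources used here.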

Additional observations from a re-analysis of the deposited data

Results flagged for a closer look

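Several members differed at least 2-fold from sham in opposite directions in different myeloid classes of the same day, each class being 1 library per day. The difference between the classes was not tested. At day 3 *Il1a* had a log2 ratio to sham of 2.76 in classical monocytes, on 14 sham UMIs, and of -1.56 in IMs. At day 7 *Il1r2* had 1.87 in AMs and -1.71 in neutrophils, and *Il1rap* 1.54 in classical monocytes and -1.47 in neutrophils. Both neutrophil values depend on depth. With the UMI minimum of day 7 applied to every library, the neutrophil difference of *Il1r2* was lower but under 2-fold. That of *Il1rap* was no longer lower. At day 14 *Il1rl1* had 3.82 in neutrophils, on 2 sham UMIs, and -1.32 in IMs.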

How the results depend on the processing

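No paired analysis was possible across time points because each has 1 library; the class comparisons were made within libraries, with the library as a block. Depth limits the low members: ILC2s held 7 to 17 cells a library, and *Il1r1* of classical monocytes rests on 5 UMIs. The cause of the changes below was not tested.

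Of the 10 members, the number called was 7 between classical monocytes and AMs, but 4 without the library block, 4 with the compared classes only, and 3 to 6 when 1 library was left out. The main comparison called 4791 of 13686 genes. For monocytes the number of all genes called under these alternatives is not given here, and a general loss of calls was not tested. Regulatory T cells had 2, but 1 without the low-count filter, without the library block or without predicted doublets, 1 to 2 when 1 library was left out and 7 with Leiden clusters. ILC2s had 1, but 2 with DESeq2, with its size factors or with the compared classes only; the Leiden clusters held no ILC2 cluster and gave no value. Epithelial cells had 4, but 2 with the stricter gate margin and 2 to 4 when 1 library was left out. The numbers for neutrophils, IMs and mature dendritic cells stayed within 1.5 times the main one under each alternative run.

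Over all genes, 507 were called for regulatory T cells, but 183 without the library block, 250 without day 3, 227 without day 14, 230 without day 28 and 3925 with Leiden clusters. For ILC2s 668 were called, but 1066 with the DESeq2 size factors, 388 without sham, 442 without day 3 and 422 with the compared classes only. For neutrophils 8494 were called and 5245 with the UMI floor of day 7; for IMs 4005 and 2415 without the block; for epithelial cells 5345 and 2837 with the compared classes only. The median difference over all genes of ILC2s was -0.48, and -0.10 with DESeq2, -0.64 with its size factors, -0.18 without the filter, -0.092 with the compared classes only and -0.93 with the stricter gate margin; that of neutrophils was -0.034, and -0.25 with Leiden clusters, and that of epithelial cells 0.050, and 0.18 without the filter. Among genes called, 50.4% were higher in neutrophils, but 39.9% with Leiden clusters and 61.1% with the UMI floor; 44.9% in monocytes against 55.7% with that floor; 38.2% in ILC2s against 22.9% with DESeq2 and 22.1% with its size factors.

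Differences that turned their sign were not called in the main comparison except *Il33* of neutrophils, at 2.02, which was -1.26 with Leiden clusters (adjusted p = 0.218). With these clusters regulatory T cells were lower for *Il1a* (-3.73), *Il1b* (-1.55) and *Il1rn* (-2.13), all called, and -0.40 for *Il1rap*. Uncalled values that turned were as follows. In monocytes *Il1rn* was -0.12 with the compared classes only and -0.32 to 0.52 without 1 library, and *Il1rl1* -0.18 to 0.82 without 1 library. In IMs *Il1a* was 0.017 with DESeq2, 0.0082 with its size factors, 0.020 with the compared classes only, 0.0011 with the mitochondrial limit of 10%, 0.038 with the UMI floor, 0.15 with Leiden clusters, 0.094 without predicted doublets, and -0.23 to 0.37 without 1 library. *Il33* of IMs was 0.18 without the block, 0.026 with the compared classes only, 0.099 with the stricter margin, 0.52 with Leiden clusters, and -0.47 to 0.15 without 1 library. In mature dendritic cells *Il18* was 0.034 with DESeq2 size factors, 0.016 without the filter, 0.084 without the block, 0.0086 with the UMI floor, 0.87 with Leiden clusters and -0.19 to 0.22 without 1 library; *Il33* was -0.50 with Leiden clusters and -0.84 to 2.13 without 1 library, and *Il1rn* -0.0836 to 0.47. In ILC2s *Il1a* was 0.0056 without the block, 0.029 with the UMI floor, 0.79 without predicted doublets and -1.95 to 0.49 without 1 library; *Il33* was -0.21 with the UMI floor; *Il18bp* was 0.011 with DESeq2, 0.093 with the UMI floor and -1.12 to 0.73 without 1 library. *Il1a* of regulatory T cells was -0.21 to 0.63 without 1 library. In epithelial cells *Il1a* was 0.054 without predicted doublets, *Il33* 0.14 with the mitochondrial limit of 10%, 0.45 with the UMI floor, 0.80 with the stricter margin and -1.05 to 0.43 without 1 library, *Il1r2* 0.052 with Leiden clusters and -1.01 to 0.064 without 1 library, and *Il1rl1* 0.50 with the stricter margin. The *Il1rap* log2 ratio of day 7 neutrophils to sham was -1.47 and 0.14 with the UMI floor.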
